A study of Caenorhabditis elegans with 16 samples.

Results

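Chromosome X of Caenorhabditis elegans was described here through its small RNA reads in adult males, counted in windows of 100 kb. The deposited genome table splits the ce11 assembly into 1006 such bins, and the 178 bins that carry chromosome X in their name were taken, without use of any measured value. Bins are numbered from the left end, so that bin 3 spans chrX:200001-300000 and bin 178 is the last, shorter one. The 16 libraries came from whole males of 4 genotypes: a prg-1 null mutant (n = 5), a prg-1 RNase mutant, named RNase dead where the series describes its design (n = 3), a prg-1 mutant lacking the PAZ domain, written ΔPAZ (n = 3), and wild type (n = 5). For each library 20 to 30 males were picked in the middle of the fourth larval stage, kept at 25 °C and collected 24 hours later, and the labels name no other treatment for any group. An acid pyrophosphatase was applied to the small RNA ahead of cloning, so that molecules with a 5′ triphosphate could be cloned as well. The labels name no allele or strain, and do not state that libraries of a genotype came from separate cultures. P-values therefore reflect the variation among these libraries alone, and part of it may be technical. Libraries were made from whole animals, in which fewer cells of a type and less RNA per cell cannot be told apart.

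PRG-1 is the Piwi Argonaute of C. elegans and binds the 21U-RNAs, the piRNAs of the worm. Targets that PRG-1 finds become templates for RNA-dependent RNA polymerases, which make secondary small RNAs with a 5′ triphosphate against the target transcript. Males carry a single X chromosome, and in the germline of the worm most X-linked genes are silent or weakly expressed, while X-linked microRNAs such as let-7 act mainly in the soma. Reads in a bin may therefore be microRNAs, secondary small RNAs, 21U-RNAs or fragments of longer transcripts. The bin counts do not tell these kinds apart, nor do they give the gene or the strand, and genes are named below only to place a bin.

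Libraries held 396813 to 2288967 genome-mapped reads. At that depth no chromosome X bin was empty in any library, and 1 read was worth between 0.437 and 2.52 reads per 1000000 genome-mapped reads (RPM). ΔPAZ replicate 1 was the shallowest library, with 17 X bins under 10 reads. As a check of the labels, 21U-RNA reads came to 2.64 to 17.0 RPM in null libraries, 734 to 1267 RPM in RNase libraries and 375 to 1060 RPM in ΔPAZ libraries, against 484 to 2207 RPM in wild type libraries. Genome-mapped reads made up 62.1 to 82.3% of the reads in null libraries, 70.3 to 77.5% in RNase libraries, 41.8 to 51.6% in ΔPAZ libraries and 39.8 to 68.3% in wild type libraries. The part of this share in the results was not tested. Bins of microRNAs with a known tissue or role were read beside the results. Those of mir-1 (muscle), mir-124 and lsy-6 (neurons) and mir-35 (germline and embryo) passed no test in any mutant against wild type. That of mir-71 (soma) was higher in the RNase mutant (log2 fold change 1.10, adjusted p = 0.0218 by the edgeR test described below). Among developmental timing microRNAs, the bin of lin-4 passed no test in any mutant against wild type. The bins of let-7 and mir-84 were higher in the RNase mutant (2.40 and 1.90, edgeR adjusted p = 1.42e-05 and 0.000133).

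Chromosome X was a quiet part of the genome with a few very abundant bins. The median X bin averaged 38.5 RPM in the null, 48.3 RPM in the RNase mutant, 62.1 RPM in ΔPAZ and 60.2 RPM in wild type, while the median bin of the autosomes averaged 271, 293, 234 and 329 RPM in the same order of genotypes. Below 100 RPM lay 139 of 178 X bins in the null, 125 in the RNase mutant, 125 in ΔPAZ and 117 in wild type. The 10 largest X bins held 83.5% of X reads in the null, 79.8% in the RNase mutant, 69.8% in ΔPAZ and 69.7% in wild type. The largest of all, bin 25 (chrX:2400001-2500000), holds mir-81 and mir-82, microRNAs of a family related to bantam of Drosophila. It alone took 51.0% of X reads in the null, 34.3% in the RNase mutant, 31.5% in ΔPAZ and 32.8% in wild type.

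Chromosome X took the largest share of genome-mapped reads in the RNase mutant. The X share was 8.29, 9.32, 9.89, 7.13 and 6.19% in the null libraries, 12.5, 11.4 and 11.3% in the RNase libraries, 7.75, 4.34 and 6.07% in the ΔPAZ libraries, and 6.47, 8.56, 6.30, 5.66 and 7.68% in the wild type libraries. Every RNase library lay above all libraries of the other genotypes, and the ranges of those overlapped. Means were 8.17 ± 1.52% in the null (SD, n = 5), 11.7 ± 0.69% in the RNase mutant (n = 3), 6.05 ± 1.71% in ΔPAZ (n = 3) and 6.93 ± 1.17% in wild type (n = 5). Without bin 25 the X share was 4.00 ± 0.82% in the null, 7.72 ± 0.49% in the RNase mutant, 4.15 ± 0.81% in ΔPAZ and 4.66 ± 0.39% in wild type, so that the null mean then lay below that of wild type. These shares are sums over the chromosome and are given as a description, with no test.

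**Figure D1:**
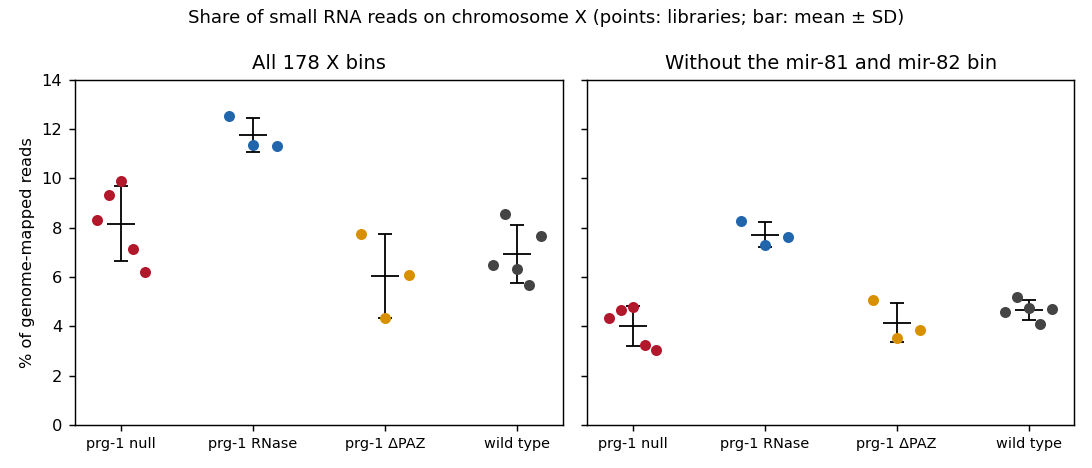
Share of genome-mapped small RNA reads (in %) that lay in the 178 chromosome X bins (left) and in the same bins without the mir-81 and mir-82 bin (right), for each library (points), with the mean and SD of each genotype (bars). The 3 RNase libraries sit highest in both panels, at 11.3 to 12.5% with all X bins.

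Of the 8 X bins with most wild type reads, 1 was called in the null, 5 in the RNase mutant and none in ΔPAZ. Over the whole genome 40.3%, 31% and 10.3% of bins were called against wild type, in the same order of mutants. Bin 25 had 39716, 46421, 51187, 39167 and 31578 RPM in null libraries, 42846, 40626 and 37239 RPM in RNase libraries and 26882, 8145 and 22123 RPM in ΔPAZ libraries, against 18973, 33674, 15797, 15479.6 and 29768 RPM in wild type libraries. All RNase libraries lay above the highest wild type library, and null libraries overlapped wild type in replicate 5. No mutant passed the test against wild type (log2 fold change 0.87 in the null, 0.82 in the RNase mutant and -0.26 in ΔPAZ, lowest edgeR adjusted p = 0.077). Yet the null passed it with TMM factors (1.24, edgeR adjusted p = 0.0138), and the RNase mutant was called with DESeq2 (0.90, DESeq2 adjusted p = 0.0284). ΔPAZ replicate 2 was the lowest of all libraries in this bin, and likewise in bins 20, 24, 82, 91 and 159. Bin 34 (chrX:3300001-3400000), with the chitinase gene cht-1, was second in wild type and is described below, as is bin 132. Bin 91 (chrX:9000001-9100000), with 10 tRNA genes, averaged 6989 ± 2008 RPM in the null, 12036 ± 587 RPM in the RNase mutant, 4549 ± 2537 RPM in ΔPAZ and 4931 ± 2169.9 RPM in wild type, and passed the test only for the RNase mutant among the 3 (log2 fold change 1.29, SE 0.40, adjusted p = 0.0176), a call that ended without RNase replicate 1 (adjusted p = 0.0546). Bin 24, with mir-73, mir-74 and mir-75, was higher in the RNase mutant too, at 5197 ± 98.0 RPM against 2066 ± 525 RPM in wild type (1.33, SE 0.31, adjusted p = 0.00239). Bin 20, with the P granule gene meg-3, reached 3559 ± 534 RPM in the RNase mutant and 1864 ± 652 RPM in wild type (0.93, adjusted p = 0.0495), a call that held in 5 of the 16 fits that each left out 1 library. Bin 82, with mir-237 of the lin-4 family, and bin 159 were not called in any mutant against wild type.

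In the null many chromosome X bins lost small RNA reads, at a share near that of the whole genome, and few gained. Of the 178 X bins 56 fell, 4 rose and 118 did not pass the test against wild type (edgeR's quasi-likelihood F test, with p-values adjusted by the method of Benjamini and Hochberg over all 1006 bins and a threshold of 0.05). That is 31.5% of X bins lower and 2.25% higher, where over the whole genome 40.3% of bins were called, 28.2% lower and 12% higher. The median log2 fold change was -0.46 over X bins and -0.24 over autosome bins, of which 228 of 827 fell and 117 rose. Scaling by TMM factors moved the median of all bins by 0.31 and gave 30 X bins lower and 11 higher. That is 16.9% and 6.18% of X bins, beside 19% and 23.7% of all bins. The lower bins then made up 73.2% of X calls, against 93.3% with genome-mapped reads. DESeq2 with its own size factors gave 41 lower and 9 higher (23.0% and 5.06% of X bins, beside 23.1% and 21.6% of all bins). The 30 bins lower with TMM factors and the 41 lower with DESeq2 were all among the 56. With replicates 1 to 3 of every genotype alone 38 X bins were lower and 3 higher (21.1% and 10% of all bins), and with replicates 4 and 5 of the null and wild type alone 33 were lower and 2 higher (23.4% and 11.2% of all bins). Of the 56 losses, 32 kept their call with replicates 1 to 3 and 27 with replicates 4 and 5. Of the 4 gains, 2 kept it with replicates 1 to 3 and 0 with replicates 4 and 5. Relative to the median of all bins, 111 of 178 X bins lay below it with genome-mapped reads and 113 with TMM factors.

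**Figure D2:**
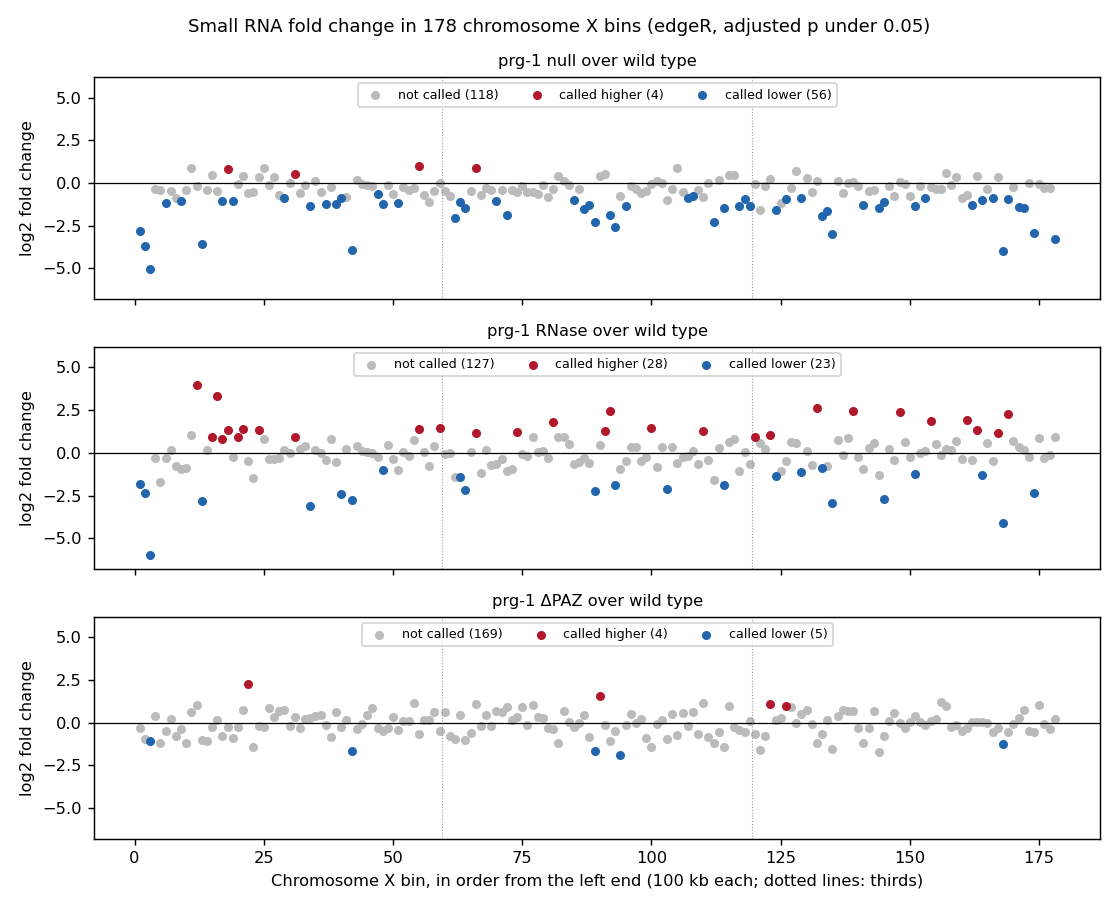
Log2 fold change of each chromosome X bin (points, in order from the left end) in the null (top), the RNase mutant (middle) and ΔPAZ (bottom), each over wild type. Red and blue points passed the edgeR test higher and lower, grey points did not, and dotted lines part it into 59, 60 and 59 bins; the null panel holds 56 blue and 4 red points, the RNase panel 23 and 28, and the ΔPAZ panel 5 and 4.

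The deepest loss in the null was in bin 3 (chrX:200001-300000), which holds mir-258.1, mir-258.2, 14 pseudogenes and 10 protein-coding genes, among them the SET domain gene set-28. Its null libraries had 16.9, 23.8, 11.4, 9.52 and 13.05 RPM, against 340.3, 495, 346, 540.0 and 732 RPM in wild type libraries. The groups did not come near each other, and the log2 fold change was -5.04 (SE 0.33, adjusted p = 2.12e-10). Bin 168 (chrX:16700001-16800000), with the class II histone deacetylase gene hda-4 and part of the AMP-activated kinase gene aak-2, had 49.8, 37.7, 12.7, 25.4 and 17.9 RPM in null libraries, against 407, 513, 290.4, 517 and 540.3 RPM in wild type libraries (log2 fold change -4.00, SE 0.32, adjusted p = 3.03e-09). Bin 42 (chrX:4100001-4200000), with the proton pump gene vha-12 and part of the chloride channel gene clh-4, had 23.6, 35.4, 21.8, 34.4 and 29.9 RPM in null libraries, against 362, 592, 309.8, 475 and 492 RPM in wild type libraries (-3.94, SE 0.34, adjusted p = 6.73e-09). In each of these bins all null libraries lay far under the lowest wild type library.

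The other 3 of the 6 deepest losses in the null lay toward the ends of the chromosome. Bin 2 (chrX:100001-200000), beside bin 3, averaged 14.2 ± 10.6 RPM in the null and 176 ± 94.0 RPM in wild type (log2 fold change -3.67, SE 0.43). Bin 13 (chrX:1200001-1300000), with the dopamine receptor gene dop-4, averaged 20.3 ± 7.72 RPM in the null and 237 ± 85.3 RPM in wild type (-3.54, SE 0.36). The last bin, 178, starts at position 17700001 and overlaps 3 protein-coding genes, among them part of the ceramide glucosyltransferase gene cgt-2. This bin was close to the detection limit in the null. It had 3.37, 5.80, 1.75, 3.17 and 2.17 RPM in null libraries, against 14.2, 32.3, 5.83, 53.7 and 55.4 RPM in wild type libraries, 28 reads in all against 183 (-3.29, SE 0.53, adjusted p = 3.53e-05). Null values lay below all wild type values, the highest of the null next to the lowest of wild type.

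The 4 gains in the null were small. Bin 55 (chrX:5400001-5500000), with the apical junction gene dlg-1, had 1048, 840.4, 682, 710.5 and 726 RPM in null libraries, against 303, 531, 311, 319 and 550.0 RPM in wild type libraries (log2 fold change 0.99, SE 0.23, adjusted p = 0.00148). All null libraries lay above all wild type libraries. Bin 66 averaged 45.5 ± 19.7 RPM in the null and 24.9 ± 5.86 RPM in wild type (0.87), and bin 18, with mir-796, 487 ± 56.2 RPM in the null and 272 ± 119 RPM in wild type (0.84). Bin 31, with mir-249, mir-359 and mir-785, averaged 253 ± 22.5 RPM in the null and 172 ± 37.8 RPM in wild type (0.55, adjusted p = 0.0447). The call of bin 31 held in 4 of the 16 fits that each left out 1 library. That of bin 66 held in 11 of them and ended without null replicate 1 or 5 or wild type replicate 1, 2 or 5.

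In the RNase mutant gains and losses on chromosome X were of like number, and both were large. Against wild type 28 X bins rose, 23 fell and 127 did not pass the test, which is 15.7% higher and 12.9% lower, where over the whole genome 31% of bins were called, 14.4% higher and 16.6% lower. The median log2 fold change was -0.02 over X bins and -0.13 over autosome bins. With TMM factors 29 X bins rose and 19 fell (21.1% and 16.6% of all bins), and the median of all bins moved by 0.12.

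Of the 6 largest gains in the RNase mutant, 3 lay in bins without a microRNA gene. Bin 12 (chrX:1100001-1200000), with the translation initiation factor gene ife-4, the endocytosis gene snx-1 and part of another, rme-6, had 667, 361 and 319 RPM in RNase libraries, against 51.4, 25.3, 20.4, 10.2 and 35.0 RPM in wild type libraries (log2 fold change 3.96, SE 0.39, adjusted p = 9.77e-08). The lowest RNase library stood at 319 RPM and the highest library of another genotype, ΔPAZ replicate 2, at 63.3 RPM. Bin 16 (chrX:1500001-1600000), with toca-1, whose product bends membranes, had 869.8, 515 and 404 RPM in RNase libraries, against 54.6, 51.1, 87.4, 78.1 and 31.1 RPM in wild type libraries (3.31, SE 0.31, adjusted p = 7.28e-08). Bin 92 (chrX:9100001-9200000), with part of the apical junction gene ajm-1, had 1166, 351 and 486 RPM in RNase libraries, against 159.8, 135, 111, 96.0 and 106 RPM in wild type libraries (2.46, SE 0.36, adjusted p = 2.43e-05). The same bin fell in the null, to 33.3 ± 14.8 RPM (-1.89, SE 0.34, adjusted p = 0.00012). In bins 12, 16 and 92 RNase replicate 1 was the highest library.

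The other 3 of the 6 largest gains, bins 132, 139 and 148, hold microRNA genes, as does bin 161. Bin 132 (chrX:13100001-13200000), with mir-54, mir-55 and mir-56 of the mir-51 family, had 12861, 13894 and 16280.5 RPM in RNase libraries, against 2609, 4662, 2887, 615 and 958 RPM in wild type libraries (log2 fold change 2.61, SE 0.53, adjusted p = 0.000651). Wild type replicates 4 and 5 were the low ones, and null replicates 4 and 5, at 1056 and 908 RPM, stood under the other null libraries in the same way. No RNase or ΔPAZ library carries the number 4 or 5, and with replicates 1 to 3 alone the log2 fold change was 2.08 (adjusted p = 7.9e-05). Bin 148 (chrX:14700001-14800000), with let-7, the microRNA that times the larval to adult switch, had 3976, 3109 and 3369 RPM in RNase libraries, against 531, 748, 646, 475 and 902 RPM in wild type libraries (2.40, SE 0.34, adjusted p = 1.42e-05). Bin 161 (chrX:16000001-16100000), with mir-84 of the let-7 family, averaged 1792 ± 481 RPM in the RNase mutant and 479 ± 174 RPM in wild type (1.90, SE 0.33, adjusted p = 0.000133). Bin 139, with mir-793, averaged 367 ± 73.9 RPM in the RNase mutant and 65.4 ± 21.2 RPM in wild type (2.48, SE 0.34, adjusted p = 7.68e-06). In these 4 bins RNase values did not overlap those of any other genotype.

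**Figure D3:**
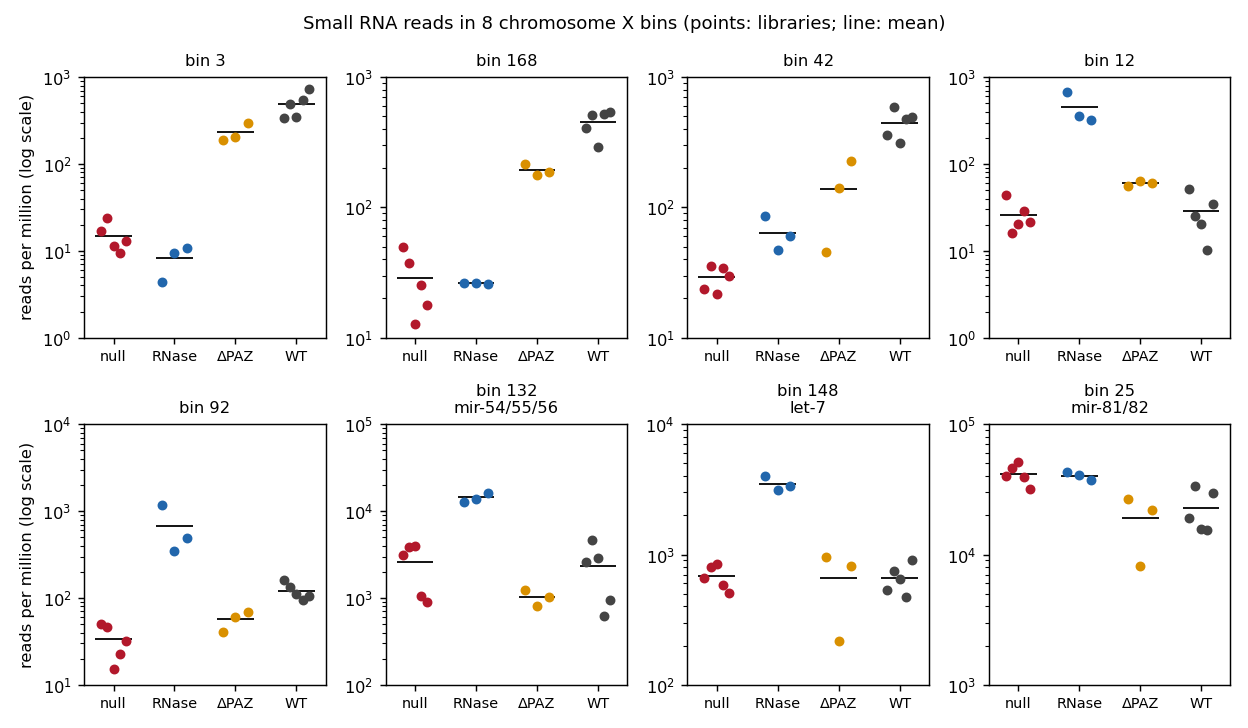
RPM (log scale) in 8 chromosome X bins for each library (points) of the null, the RNase mutant, ΔPAZ and wild type, with the mean of each genotype (lines). Bins 3, 168 and 42 are low in the null and the RNase mutant, bins 12, 92, 132 and 148 are high in the RNase mutant, and bin 25, with mir-81 and mir-82, overlaps between the null and wild type.

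The deepest losses in the RNase mutant were again bins 3 and 168. Bin 3 had 4.43, 9.44 and 10.7 RPM in RNase libraries, 35 reads in all, against the 340.3 to 732 RPM of wild type libraries (log2 fold change -5.95, SE 0.45, adjusted p = 3e-09). Bin 168 had 26.1, 26.1 and 25.9 RPM in RNase libraries, against 290.4 to 540.3 RPM in wild type libraries (-4.12, SE 0.40, adjusted p = 9.77e-08). Bins 13 (-2.83), 42 (-2.79) and 135 (-2.92) were also lower in the RNase mutant. Bin 135 rests in part on wild type replicate 3, at 703 RPM against 48.4 to 125 RPM in the other wild type libraries. Without that library its log2 fold change was -1.73 in the RNase mutant and -1.82 in the null, and both still passed the test.

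Of the 8 X bins with most wild type reads, bin 34 (chrX:3300001-3400000) was the one that fell in the RNase mutant. It had 644, 474 and 829 RPM in RNase libraries, against 4151, 3270.1, 6093, 11015 and 3434 RPM in wild type libraries (log2 fold change -3.11, SE 0.51, adjusted p = 6.68e-05). The null was intermediate, at 4024, 2254, 1526, 1449.5 and 1842 RPM (-1.33, SE 0.38, adjusted p = 0.0081), overlapping wild type in replicate 1, and this call ended with TMM factors (-1.06, adjusted p = 0.0508) and with replicates 1 to 3 alone (-0.79, adjusted p = 0.143). ΔPAZ libraries had 10433, 5806 and 3828 RPM, within the wild type range. A similar order held in bin 145, with the linker histone gene his-24, at 425 ± 76.7 RPM in the null, 138 ± 61.5 RPM in the RNase mutant, 515 ± 203 RPM in ΔPAZ and 906 ± 705 RPM in wild type. There the RNase mutant was lower by -2.72 on the log2 scale (SE 0.47, adjusted p = 0.000126), and the call for the null (-1.09, adjusted p = 0.02) ended without wild type replicate 5 (-0.50, adjusted p = 0.171) and with TMM factors (-0.71, adjusted p = 0.107).

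In ΔPAZ few chromosome X bins passed the test. Against wild type 4 rose, 5 fell and 169 did not pass, which is 2.25% higher and 2.81% lower, where over the whole genome 10.3% of bins were called, 0.994% higher and 9.34% lower. The median log2 fold change was -0.07 over X bins and -0.48 over autosome bins, of which 6 of 827 rose and 89 fell. With TMM factors the median of all bins moved by 0.40, the X median became 0.32, and 6 X bins rose and 2 fell (2.78% and 1.59% of all bins), so that the lower bins made up 25.0% of X calls, against 55.6% with genome-mapped reads. DESeq2 with its own size factors gave 15 X bins higher and 3 lower (4.37% and 4.27% of all bins). At an unadjusted p under 0.05 stood 41 X bins. With replicates 1 to 3 of every genotype alone, 1 X bin rose and 12 fell (1.19% and 5.07% of all bins). That 1 gain was among the 4, and 3 of the 5 losses were among the 12.

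The 5 losses in ΔPAZ were bins 94, 42, 89, 168 and 3. Bin 94 (chrX:9300001-9400000), with the protein kinase C gene pkc-2 and the neuropeptide gene flp-20, had 55.4, 10.6 and 30.4 RPM in ΔPAZ libraries, against 120.3, 109, 76.7, 101 and 172 RPM in wild type libraries (log2 fold change -1.91, SE 0.43, adjusted p = 0.0177). Its call ended with TMM factors (-1.47, adjusted p = 0.0553) or without ΔPAZ replicate 2. Bin 89 (chrX:8800001-8900000), with 11 tRNA genes, had 25.2, 64.8 and 52.4 RPM in ΔPAZ libraries, against 161, 103, 174, 184 and 137 RPM in wild type libraries (-1.64, SE 0.35, adjusted p = 0.0153), and its call ended without ΔPAZ replicate 1. In both bins all ΔPAZ libraries lay below all wild type libraries.

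Of the 4 gains in ΔPAZ, the largest rested on 1 library. Bin 22 (chrX:2100001-2200000), with the cuticle collagen gene dpy-3, had 30.2, 342 and 35.6 RPM in ΔPAZ libraries, against 38.8, 25.3, 23.3, 19.2 and 37.9 RPM in wild type libraries. Only replicate 2 stood above wild type, and without it the log2 fold change of 2.24 (SE 0.53, adjusted p = 0.0207) became 0.20 (adjusted p = 0.786). Bin 90 (chrX:8900001-9000000), next to bin 89, had 75.6, 45.2 and 59.7 RPM in ΔPAZ libraries, against 31.7, 13.98, 30.1, 12.8 and 13.6 RPM in wild type libraries (1.54, SE 0.40, adjusted p = 0.0258). Bin 126 had 181, 157 and 138 RPM in ΔPAZ libraries, against 101, 62.9, 108, 72.9 and 54.4 RPM in wild type libraries (0.99, SE 0.29, adjusted p = 0.0402). Bin 123 averaged 71.4 ± 8.44 RPM in ΔPAZ and 33.5 ± 15.2 RPM in wild type (1.08, adjusted p = 0.0475). In bins 90 and 126 the groups did not overlap, but the call held in 12 of the 16 fits without 1 library for bin 90, in 7 for bin 126 and in 2 for bin 123.

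Bins 3, 42, 89 and 168 were lower than wild type in each mutant, although these comparisons share the wild type libraries and are not independent. Over the whole genome 28.2% of bins fell in the null, 16.6% in the RNase mutant and 9.34% in ΔPAZ. Autosome bins that fell in each mutant were not counted, so these X bins cannot be set beside the genome. In bin 3 the log2 fold change was -5.04 in the null, -5.95 in the RNase mutant and -1.08 in ΔPAZ. It was -4.00, -4.12 and -1.23 in bin 168, -3.94, -2.79 and -1.66 in bin 42, and -2.28, -2.21 and -1.64 in bin 89, in the same order of mutants. ΔPAZ libraries lay between the other mutants and wild type in bin 3, at 186, 206 and 299.6 RPM, and in bin 168, at 217, 176 and 187 RPM. The ΔPAZ calls of bins 3 (-0.68, adjusted p = 0.149) and 168 (-0.79, adjusted p = 0.125) ended with TMM factors. That of bin 42 ended without ΔPAZ replicate 1 or 2, and that of bin 3 held in 7 of the 16 fits that each left out 1 library.

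The mutants were also compared with each other. ΔPAZ over the null gave the widest difference: 51 X bins were higher in ΔPAZ, 5 lower and 122 not called, which is 28.7% higher and 2.81% lower, where over the whole genome 39.7% of bins were called, 17.5% higher and 22.2% lower. The median log2 fold change was 0.51 over X bins and -0.20 over autosome bins, of which 125 of 827 were higher and 218 lower, and TMM factors gave 53 X bins higher and 4 lower (21.5% and 25% of all bins) with medians of 0.57 and -0.14. Bin 3 led, at 231 ± 60.3 RPM in ΔPAZ and 14.9 ± 5.65 RPM in the null (3.96, SE 0.34, adjusted p = 3.77e-08), followed by bin 178, at 36.8 ± 17.9 RPM in ΔPAZ and 3.25 ± 1.58 RPM in the null (3.52, SE 0.59, adjusted p = 7.9e-05). Bin 22 (2.81) was the next and rested on ΔPAZ replicate 2, without which it was 0.77 (adjusted p = 0.153). The largest differences the other way were bin 55 (-1.65, SE 0.28), bin 82 with mir-237 (-1.62, SE 0.44) and bin 100 with mir-49 (-1.35, SE 0.53), the last of which was not called with TMM factors (adjusted p = 0.129) and held its call in 5 of the 16 fits without 1 library.

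The RNase mutant over the null gave 29 X bins higher, 3 lower and 146 not called, which is 16.3% higher and 1.69% lower, where over the whole genome 21.2% of bins were called, 13.5% higher and 7.65% lower. The median log2 fold change was 0.47 over X bins and 0.12 over autosome bins. TMM factors moved the median of all bins by -0.19 and gave 20 X bins higher and 4 lower (11.4% and 14.1% of all bins). Bin 92 led, with 668 ± 437 RPM in the RNase mutant and 33.3 ± 14.8 RPM in the null (4.34, SE 0.39, adjusted p = 2.46e-08), followed by bin 178 (4.24, SE 0.56) and bin 12 (4.12, SE 0.39). The 3 lower bins were 34 (-1.77, SE 0.47), 145 (-1.63, SE 0.45) and 40 (-1.53, SE 0.35). Bin 40 (chrX:3900001-4000000), with the Wnt receptor gene lin-18, had 24.4, 27.6 and 43.8 RPM in RNase libraries, against 98.7, 150.2, 98.3, 59.2 and 52.2 RPM in null libraries, with no overlap.

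The RNase mutant over ΔPAZ gave 27 X bins higher, 21 lower and 130 not called, which is 15.2% higher and 11.8% lower, where over the whole genome 34.3% of bins were called, 24.9% higher and 9.44% lower. With TMM factors, which moved the median of all bins by -0.28, 20 X bins were higher and 28 lower (21% and 17% of all bins), so that the lower ones made up 58.3% of X calls, against 43.8% with genome-mapped reads. The median log2 fold change over X bins was -0.06, and -0.31 with TMM factors, while that over autosome bins was 0.35, and 0.07 with TMM factors. DESeq2 gave 21 X bins higher and 37 lower (21.6% and 19.6% of all bins). Bin 132 was highest, with 14345 ± 1754 RPM in the RNase mutant and 1025 ± 224 RPM in ΔPAZ (3.81, SE 0.67, adjusted p = 0.000205), followed by bins 92 (3.54, SE 0.47) and 16 (3.18, SE 0.38). Bin 3 was lowest, with 8.20 ± 3.33 RPM in the RNase mutant and 231 ± 60.3 RPM in ΔPAZ (-4.87, SE 0.45, adjusted p = 1.26e-07), followed by bins 34 (-3.36, SE 0.53) and 168 (-2.88, SE 0.40).

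**Figure D4:**
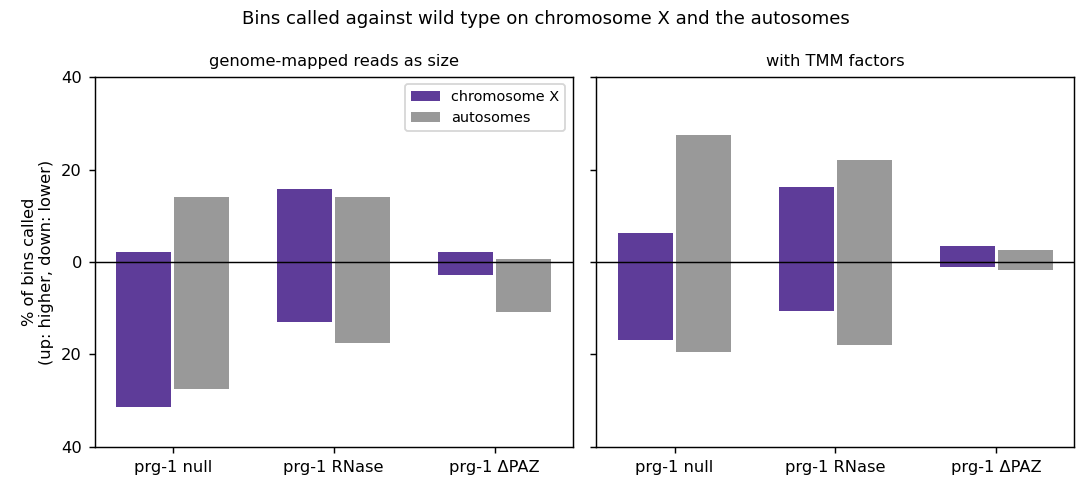
Percentage of bins called higher (upward bars) and lower (downward bars) than wild type in each mutant, on chromosome X (left bar of each pair) and on the autosomes (right bar), with genome-mapped reads as library size (left panel) and with TMM factors (right panel). In the null 2.25% of X bins were higher and 31.5% lower with genome-mapped reads.

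By position, called bins lay along the whole chromosome. In the null 17 of the 59 leftmost bins, 19 of the 60 middle bins and 20 of the 59 rightmost bins fell, with medians of -0.44, -0.50 and -0.43. In the RNase mutant 11, 7 and 10 bins rose and 8, 6 and 9 fell in the left, middle and right stretch. Over the whole genome 28.2% of bins fell in the null, and 14.4% rose and 16.6% fell in the RNase mutant. At the left end bins 1 to 3 formed a run of neighbours that fell in both the null and the RNase mutant, and bins 15 to 18 a run of 4 that rose in the RNase mutant. The null had 4 further runs of 3 lower bins, bins 62 to 64, 87 to 89, 117 to 119 and 133 to 135. Yet neighbours could differ widely: in 7 of 177 pairs of neighbours 1 bin rose and the other fell in the RNase mutant. Bin 12 (3.96) lay beside bin 13 (-2.83), and bin 168 (-4.12) beside bin 169 (2.28). Runs and pairs of neighbours were counted on chromosome X alone, so they cannot be set beside the autosomes.

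By annotation, the bins with microRNA genes and the rest were compared by their counts alone. The 44 bins that hold 1 or more of the 73 X-linked microRNA genes of RefSeq carried 55.4% of wild type X reads. Of these, 11 rose and 3 fell in the RNase mutant (median log2 fold change 0.13), while 17 of the other 134 bins rose and 20 fell (median -0.18). In the null 2 microRNA bins rose and 11 fell (median -0.29), and 2 of the others rose and 45 fell (median -0.54). In ΔPAZ 1 microRNA bin fell and none rose (median -0.27), and 4 of the others rose and 4 fell (median 0.01). Over the whole genome 14.4% of bins rose and 16.6% fell in the RNase mutant, 12% and 28.2% in the null, and 0.994% and 9.34% in ΔPAZ. The reads of a bin were not assigned to its microRNA: mir-258.1 and mir-258.2, for example, share bin 3 with 14 pseudogenes. These medians use genome-mapped reads, and TMM factors moved the median of all bins up by 0.31 in the null, 0.12 in the RNase mutant and 0.40 in ΔPAZ.

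**Figure D5:**
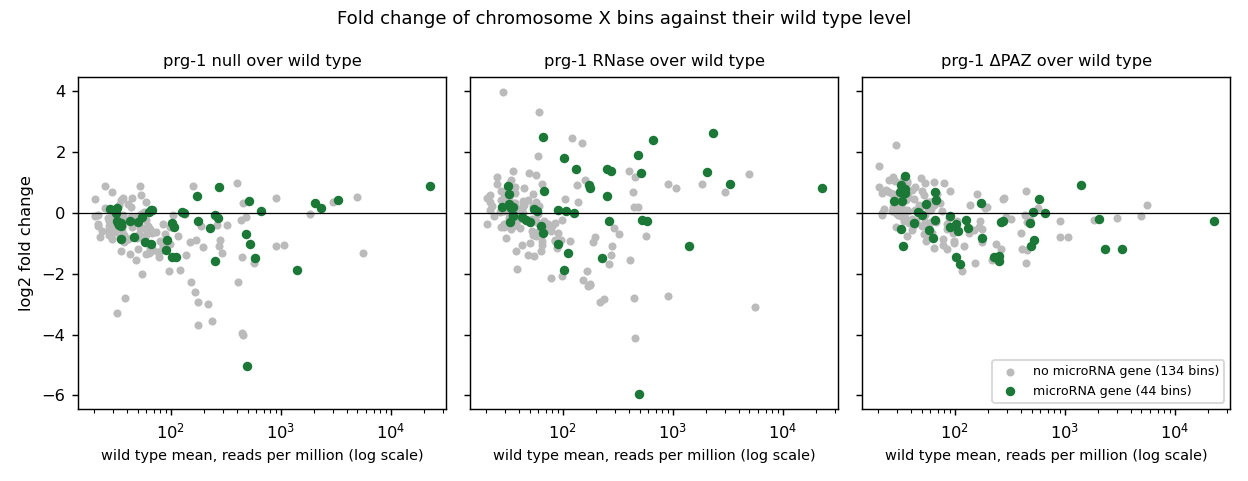
Log2 fold change of each chromosome X bin over wild type (vertical axis) against its mean RPM in wild type (horizontal axis, log scale) in the null, the RNase mutant and ΔPAZ. Green points are the 44 bins with a microRNA gene, of which 11 passed the test higher in the RNase mutant and 11 lower in the null, and grey points are the other 134 bins.

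Bins with other small RNA genes were described by their counts in the same way, and no class was tested against the rest. In the null 28.2% of all bins of the genome fell and 12% rose, beside 31.5% and 2.25% of X bins. In the RNase mutant 16.6% of all bins fell and 14.4% rose. In the null 35 of 96 bins with a tRNA gene fell and 4 rose (median -0.51), and 21 of 82 without one fell and none rose (median -0.42). Bins with a piRNA gene fell in 32 of 108 cases (median -0.44) and bins without one in 24 of 70 (median -0.59). Of 27 bins with a snoRNA gene 7 fell and 1 rose, and of 23 bins with none of the 4 kinds 8 fell and none rose (median -0.71). Among the 7 bins with 5 or more pseudogenes 4 fell and 1 rose in the null (median -1.05), and 3 fell and 3 rose in the RNase mutant. This class was not among those planned. It includes bins 2, 3 and 18, named above for their fold changes, so its counts cannot show a link with pseudogenes. By level, X bins were split at the median of their mean RPM over all 16 libraries. In the RNase mutant 25 of the upper 89 rose and 18 fell, against 3 and 5 of the lower 89. That mean includes the RNase libraries, so a rise itself moves a bin up, and bins with few reads pass a test less easily. These counts therefore cannot show whether change depended on level.

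The X-linked sex determination genes lie in 6 bins. xol-1, the master switch of male fate, lies in bin 81 (chrX:8000001-8100000), which had 324, 477 and 276 RPM in RNase libraries, against 100.5, 148, 152, 43.5 and 68.0 RPM in wild type libraries (log2 fold change 1.80, SE 0.35, adjusted p = 0.000463), and also holds mir-784 and mir-5553. Its RNase values lay above all others, and the null (-0.35) and ΔPAZ (-0.38) did not pass the test. Bin 163, with sdc-1, which acts in sex determination and dosage compensation, and 12 tRNA genes, rose in the RNase mutant as well, at 1280.2 ± 38.4 RPM against 512 ± 165 RPM in wild type (1.32, SE 0.30, adjusted p = 0.00156). Bin 103, with the X signal element gene sex-1, fell in the RNase mutant (-2.09, SE 0.70, adjusted p = 0.0274), a call that ended with TMM factors (adjusted p = 0.0556), without any single RNase library and without wild type replicate 3, its highest library (-1.47). Bin 19, with ceh-39 and 11 microRNA genes, fell in the null, at 256 ± 59.4 RPM against 527 ± 111 RPM in wild type (-1.04, SE 0.26, adjusted p = 0.00248), a call that ended with replicates 1 to 3 alone (-0.69, adjusted p = 0.125). The bins of fox-1 (bin 25) and sdc-2 (bin 116) passed no test against wild type.

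Of the bins of 3 X-linked small RNA genes, that of sid-5, which acts in the transport of silencing RNA, fell in the null (bin 70, 42.9 ± 14.6 RPM against 89.5 ± 35.1 RPM in wild type, log2 fold change -1.06, adjusted p = 0.0212), a call that ended with TMM factors (-0.83, adjusted p = 0.0861). The bins of the Argonaute genes alg-1 and nrde-3 passed no test against wild type. None of the 4 bins with yolk protein genes, vit-1 to vit-5, did either, with 20.1 to 30.2 RPM in the null, 30.1 to 35.0 RPM in the RNase mutant, 30.6 to 47.2 RPM in ΔPAZ and 27.9 to 35.7 RPM in wild type. Of 3 bins with histone genes, bin 74, with his-38 and his-40, rose in the RNase mutant (134 ± 33.2 RPM against 56.9 ± 13.4 RPM in wild type, 1.25, SE 0.29, adjusted p = 0.00234), bin 145 fell as given above, and bin 80, with his-71, passed no test. The bin of mir-34 passed no test between genotypes, at 130.1 ± 85.3 RPM in the null, 126 ± 24.7 RPM in the RNase mutant, 109.5 ± 25.9 RPM in ΔPAZ and 126 ± 80.6 RPM in wild type. That of mir-233 passed no test against wild type, with wild type values between 51.5 and 759 RPM.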

How the data were processed

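Small RNA from whole adult males was sequenced in 16 libraries. The submitters' processing notes name cutadapt 3.7 and FastQC 0.12.0, and reads were placed on ce11, per the file headers. Neither the aligner nor its handling of multiply mapping reads is given in the sources used here, so that reads of repeated sequence may be split or counted at several bins. The authors deposited whole read counts per 100 kb bin, with the genome-mapped total in the first line, and read counts per library, among them those of 21U-RNAs, by a rule not stated. A bin's count gives neither strand nor kind of small RNA.

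Counts were divided by genome-mapped reads (RPM) for display. Differences were tested with edgeR 4.0.16 (quasi-likelihood test, R 4.3.3) on the deposited counts, in 1 fit over 4 genotypes and 1006 bins, with genome-mapped reads as library size and no factors. The minimum of 10 counts in 3 libraries removed no bin. P-values were adjusted by Benjamini-Hochberg over 1006 bins in each of 6 contrasts, and bins under 0.05 were called. Standard errors were taken as the size of the log2 fold change over the square root of F. The fit was tested on simulated counts. Bins were annotated from Ensembl release 115 and RefSeq tables of WBcel235, the same assembly as ce11. No sequence was read.

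Named bins were, for each mutant, the 6 called bins with the largest rise and the 6 with the largest fall at a mean of at least 20 RPM in the higher genotype. To these were added the 8 largest in wild type, the 3 largest differences each way between mutants, bins called alike in each mutant, and bins of the listed genes. The members, lists and tests were chosen with earlier results of these data known. Alternatives were TMM factors, DESeq2 1.42.0, library sizes or shares without the largest bins, no filter, a replicate block, the 13 libraries the series' design text lists, replicate subsets and leaving out each library. Libraries with the same number were not taken as pairs, and no libraries agreed within sampling noise (lowest chi-square per degree of freedom 41.2). The table of single piRNAs was not used here.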

Additional observations from a re-analysis of the deposited data

Results flagged for a closer look

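Of 104 groups of 5 libraries examined in the named bins and the X share, 7 held a library far from the other 4, with a gap over 0.71 of the group's range (Dixon's criterion), where chance flags about 1 in 20 groups. In the null, replicate 1 had 32.9 RPM in bin 2, where the others had 7.07 to 11.6 RPM. Null replicate 3 had 3118 RPM in bin 24, with mir-73 to mir-75, where the others had 2347 to 2563 RPM. The other 5 were wild type libraries. Wild type replicate 3 had 225 RPM in bin 40 (others 145 to 165 RPM). The same library had 759 RPM in bin 121, with mir-233 (others 51.5 to 236 RPM), and 703 RPM in bin 135 (others 48.4 to 125 RPM). Wild type replicate 1 had 60.1 RPM in bin 123 (others 23.3 to 30.6 RPM), a bin called higher in ΔPAZ. Wild type replicate 5 had 2134 RPM in bin 145, with his-24 (others 420.2 to 794 RPM). In each of the 7 groups the library that stood apart was the highest.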

How the results depend on the processing

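No fold change of a named bin that was called changed sign in 3015 fits under the alternatives, 2708 kept their call and 307 lost it, and 132 fits called a value that was not called before. Of 125 called values 76 kept the call under each alternative run. The 4 X bins higher in the null became 11 with TMM factors, 9 with DESeq2, 2 with the replicate number as a block and 2 with replicates 4 and 5 alone, and the 56 lower became 30 with TMM factors and 33 with replicates 4 and 5 alone. The 2 higher with replicates 4 and 5 alone were other bins, since 0 of the 4 were called higher there. Of the 56 lower, 27 were among the 33. The 4 higher in ΔPAZ became 15 with DESeq2, 0 with the replicate block, 1 with the 13 libraries or replicates 1 to 3 and 2 with a block of replicates 1 to 3 against 4 and 5. The 5 lower in ΔPAZ became 2 with TMM factors, 3 with DESeq2 or without the 3 largest bins in the library size, 10 with the replicate block, 9 with the 13 libraries, 12 with replicates 1 to 3 and 11 with the block of 2 sets. Of these 5, 3 were among the 10 lower with the replicate block and 3 among the 12 with replicates 1 to 3. The cause was not tested. Without the 3 largest genome bins in the denominator the X share was 10.5% in the null, 14.8% in the RNase mutant, 8.84% in ΔPAZ and 8.997% in wild type, without the 3 largest X bins 3.05, 5.08, 3.59 and 3.93%, and without bin 25 4.00, 7.72, 4.15 and 4.66%, in the same order. Leaving out 1 library at a time gave 2 to 5 X bins higher and 43 to 58 lower in the null, 22 to 29 and 15 to 26 in the RNase mutant, and 0 to 8 and 1 to 15 in ΔPAZ. It gave 22 to 36 called for the RNase mutant over the null, 39 to 60 for ΔPAZ over the null and 39 to 53 for the RNase mutant over ΔPAZ. X shares then ran from 7.73 to 8.66% in the null, 11.3 to 11.95% in the RNase mutant, 5.21 to 6.91% in ΔPAZ and 6.53 to 7.25% in wild type. Null gains were 2 without null replicate 1 or 5, and RNase losses 15 without RNase replicate 2. ΔPAZ gains were 0 without ΔPAZ replicate 2, 1 without ΔPAZ replicate 1 or wild type replicate 2 or 5, 2 without null replicate 2, any RNase library or wild type replicate 4, 7 without ΔPAZ replicate 3 and 8 without wild type replicate 3. ΔPAZ losses were 1 without ΔPAZ replicate 1 or 2, 3 without wild type replicate 2 or 5, 8 without ΔPAZ replicate 3 and 15 without wild type replicate 3. These leave-one-out counts, like those with the 13 libraries, cover X bins alone. They cannot show whether the other chromosomes changed alike. Same-numbered libraries deviated together (correlation over 0.1) in 5 of 20 pairs, and the numbers were not taken as pairing. Between the null and wild type, however, the correlations for replicates 1 to 5 were 0.196, 0.014, 0.104, 0.355 and 0.217. Null replicate 4 with wild type replicate 5 gave 0.354, and null replicate 5 with wild type replicate 4 gave 0.293. The main fit took no account of such sets, and their origin was not tested. The replicate block called 53 X bins lower in the null, 26 higher and 24 lower in the RNase mutant, 27 higher and 6 lower for the RNase mutant over the null, 42 and 8 for ΔPAZ over the null, and 26 and 21 for the RNase mutant over ΔPAZ. No filter gave the values of the filtered fit, since every bin passed. ΔPAZ libraries, with 396813 to 954712 genome-mapped reads, had the lowest mean depth. The fit of replicates 4 and 5, the block of 2 sets and the X share without bin 25 were added after the data were seen. The pseudogene class and the split of X bins by level were not among the classes planned either.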

Other observations

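A pair of microRNA bins outside the naming rule, chosen after their values were seen, set ΔPAZ apart from the null. The pair does not stand for its class. Of the 44 bins with a microRNA gene, 7 were higher and 3 lower in ΔPAZ than in the null (median log2 fold change -0.01). Of the other 134 bins 44 were higher and 2 lower (median 0.62), where over the whole genome 17.5% were higher and 22.2% lower. Bin 72 (chrX:7100001-7200000), with mir-4811, had 1071, 4299.9 and 2563 RPM in ΔPAZ libraries, against 357, 379, 175, 389 and 602 RPM in null libraries (log2 fold change 2.80, SE 0.52, edgeR adjusted p = 0.000211). All ΔPAZ libraries lay above all null libraries, and wild type libraries ranged from 318 to 3274 RPM. Bin 87 (chrX:8600001-8700000), with mir-799, had 358, 1057 and 980.4 RPM in ΔPAZ libraries, against 299, 219, 127, 162 and 221 RPM in null libraries (1.97, SE 0.52, edgeR adjusted p = 0.00461). Against wild type both bins fell in the null, with log2 fold changes of -1.89 in bin 72 and -1.501 in bin 87 (edgeR adjusted p = 0.00247 and 0.0135), and neither passed the test in the RNase mutant or ΔPAZ.

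Over all bins, null replicates 4 and 5 differed from null replicates 1 to 3. The chi-square per degree of freedom was 421 to 631 between these sets, 41.2 to 75.2 among replicates 1 to 3 and 58.9 between 4 and 5. In wild type the ranges overlapped, at 222 to 494 between the sets, 198 to 356 among replicates 1 to 3 and 147 between 4 and 5. The cause was not tested. Replicates 4 and 5 also stood low in 2 further microRNA bins. In the bin of mir-34 they had 43.3 and 42.4 RPM in the null, where replicates 1 to 3 had 238, 159 and 167 RPM, and 16.6 and 80.7 RPM in wild type, where replicates 1 to 3 had 159, 147 and 228 RPM. In the bin of mir-49 they had 193 and 72.9 RPM in the null, where replicates 1 to 3 had 267, 343 and 330.3 RPM, and 64.0 and 97.2 RPM in wild type, where replicates 1 to 3 had 241, 375 and 487 RPM. No RNase or ΔPAZ library carries these numbers.

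Across the 178 X bins, which share library and depth, the mean Spearman correlation of a library with the others of its genotype was 0.78 to 0.80 in the null, 0.85 to 0.88 in the RNase mutant, 0.71 to 0.76 in ΔPAZ and 0.76 to 0.83 in wild type.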
